A study of Mus musculus with 830 samples.

Results

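The axon guidance ligands and receptors measured in early mouse endoderm were the semaphorins, plexins, neuropilins, ephrins, Eph receptors, Slits, Robos, netrins, Dcc and the Unc5 receptors. They were chosen by symbol alone, which took 72 of the 26313 rows of the read count table. These were 7 class 3, 6 class 4 and 7 other semaphorins, 9 plexins, 2 neuropilins, 5 ephrin-A and 3 ephrin-B ligands, 9 EphA and 5 EphB receptors, 3 Slits, 4 Robos, 5 netrins, 5 rows of Dcc and Unc5, and 2 rows that share only the name. Those 2, Unc50 (a Golgi-associated protein) and Unc5cl, are not guidance receptors, so 70 rows are guidance genes. All 72 rows had at least 1 read.

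The study profiled 830 single cells of endoderm and gut from mouse embryos of the cross C57BL/6XC3H by Smart-seq3xpress, which reads whole transcripts of cells sorted into plates. Cells were stained for the epithelial surface protein EpCAM and sorted, and each deposited sample is 1 cell. The labels give 3 genotypes at Neurog3, or Ngn3, a transcription factor with a basic helix-loop-helix domain that sets off the endocrine programme. The genotype Ngn3-Cre; Ai6, here Ngn3Cre, gave 333 cells of 18 to 27 somites; Cre is driven by Ngn3 and the Ai6 reporter then stays on in a cell and its descendants. Ngn3-GFP/+ (HZ) gave 326 cells and Ngn3-GFP/GFP (HM) 171 cells, both of 15 to 27 somites, with GFP at 1 or both Ngn3 alleles. No group is free of an Ngn3 reporter, and the sources used here do not give what each allele leaves of Ngn3, the embryo of a cell or any gate on the reporter.

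Guidance cues were named for steering growing axons, and the same proteins act on migrating cells, vessels and epithelia. Semaphorins signal through plexins, the class 3 members with neuropilins as co-receptors. Ephrins sit on the cell surface and bind Eph receptors on the neighbouring cell, with signalling in both directions. Secreted Slits bind Robos and are mostly repellent, and netrins attract through Dcc or repel through Unc5 receptors. In the developing gut and pancreas such cues guide nerves and vessels, and Robo and Eph receptors also act in the epithelium itself.

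Cells are no replicates, so reads were summed into pools by genotype and stage. Of 14 pools, the 11 with at least 10 cells were tested: HM at 15, 18, 21 and 24 somites, HZ at 18, 21, 24 and 27, and Ngn3Cre at 21, 24 and 27. Values of pools are given in this order where no stage is named. The pools held 8299225 to 70763553 reads, and median depth per cell was 626967 reads in HM, 378157 in HZ and 465918 in Ngn3Cre. Neurog3 itself, given as a check of the labels, stood at 6.18 to 11.1 CPM (reads of a gene scaled to a fixed total of reads per pool) in HM pools, 79.3 to 132 CPM in HZ and 147 to 553 CPM in Ngn3Cre. Markers of gut epithelium were present in every pool, with a summed level of the 9 markers of 842 to 4518 CPM, while 7 blood markers summed to at most 4.2 CPM. The summed level of 15 endocrine markers was 85.1 to 592 CPM in HM, 1029 to 13647 CPM in HZ and 14158 to 23790 CPM in Ngn3Cre, and Pax4 and Scg2 were among those at 0 in at least 1 pool. The summed level of 10 neural or neural crest markers was 11.6 to 925 CPM in HM, 694 to 1683 CPM in HZ and 2085 to 3469 CPM in Ngn3Cre. Of the neural list, Sox10, Foxd3, Tlx2 and Neurog2 were among those at 0 in at least 1 pool. Foxd3 was also a leading gene of an endocrine-like cluster described below, so the neural sum need not come from neural cells alone. These sums thus differed between genotypes. In the sum of a pool alone, fewer cells of a type and less RNA per cell cannot be told apart. Endocrine-like and neural or neural crest-like cells are counted by genotype with the clusters.

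Per gene length, 19 of the 70 guidance genes averaged at least 10 TPM (a level scaled by gene length and by all reads of the pool) over the 11 pools, 30 averaged 1 to 10 TPM and 21 less than 1 TPM. The ephrin-A ligand Efna5 had the highest mean, 154 TPM, and ranged from 52.9 to 303 TPM between pools. Efna4 and Efna1, also ephrin-A ligands, followed at 44.7 and 37.2 TPM, and these ligands, like all genes below whose level in every pool is not printed, are named after their values were seen. Their ranges over pools (11.4 to 87.7 and 2.52 to 95.2 TPM) overlapped. Among semaphorins the secreted Sema3c (32.7 TPM) and the membrane-bound Sema4b (21.2 TPM) were the highest of their classes, and Sema6a (12.4 TPM) of the remaining ones. Their receptors were led by the neuropilin Nrp1 (32.6 TPM) and the plexin Plxnb1 (18.9 TPM), a receptor for class 4 semaphorins. The other leading genes of a family were Efnb2 (26.9 TPM), Ephb3 (14.1 TPM) and Epha7 (10.3 TPM) in the ephrin system, Robo1 (14.8 TPM) and Slit2 (2.18 TPM), and Ntn1 (3.24 TPM) and Unc5b (6.22 TPM). The ligands of the Slit and netrin families thus had lower mean levels per length than their leading receptors, a description of pooled cells with no test. At the other end, 6 guidance genes had reads in 10 cells or fewer: Plxnb3 and Ntng2 in 8 cells each, Epha3 in 5, Robo4 in 3, Robo3 in 2 and Epha6 in 1.

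**Figure D1:**
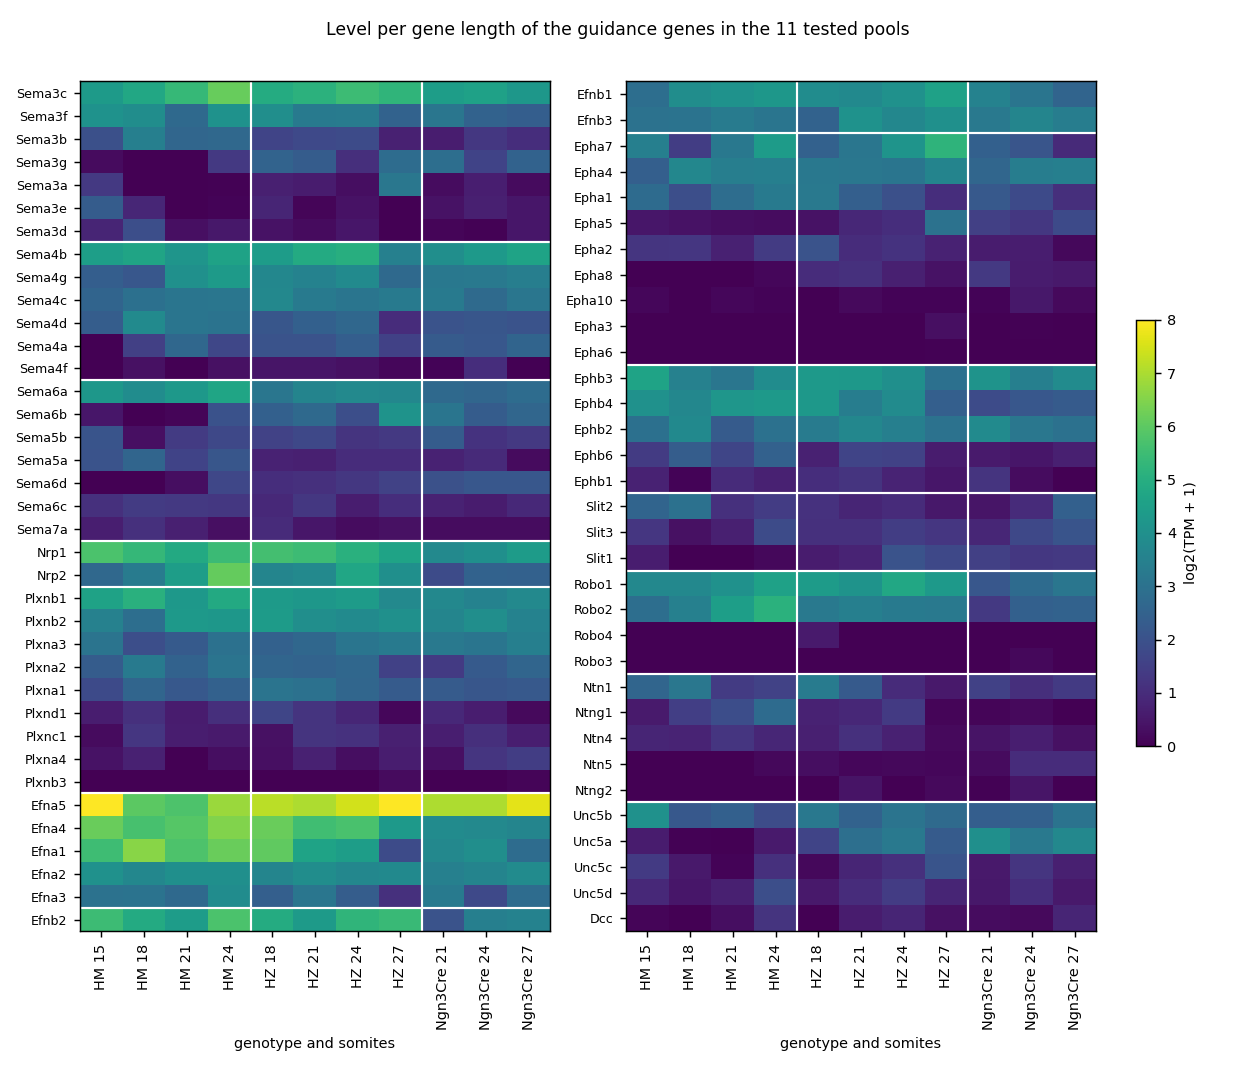
Level per gene length, as log2(TPM + 1), of the 70 guidance genes (rows, by family, families parted by white lines) in the 11 tested pools (columns, genotype and somites, genotypes parted by white lines); levels above the top of the scale share its colour. Efna5 is the brightest row, and the Ngn3Cre columns are darker than the HZ columns for Efnb2, Nrp2 and Robo1.

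Comparing HM with HZ asks how guidance genes differ when both Ngn3 alleles carry GFP. With stage held as a factor, 71 members passed the filter on low counts (Epha6 did not), 2 were lower in HM and 1 was higher. Over all 18420 genes tested, 1.38% were called lower and 0.0923% higher, so 1.47% were called in either direction, against 4.23% of the members. The members' median log2 fold change was -0.08, beside -0.09 for all genes, and -0.07 with 2 members without a read in HM set at their bound (3 reads over the group) and 1 at or under 3 reads in both groups left out. At an unadjusted p under 0.05 stood 16 members (22.5%; 10 higher and 6 lower), beside 13.4% of all genes (4.61% higher and 8.79% lower). HM and HZ share 3 stages, and HM at 15 somites, alone at its stage, carried no weight in the contrast.

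The netrin receptor Unc5a was lower in HM. Unc5a (chr13:54949411-55006018, plus strand, GRCm38) mediates repulsion by netrin and can trigger cell death when netrin is missing. In HM it stood at 1.32, 0.0885, 0.0544 and 1.11 CPM at 15, 18, 21 and 24 somites, from 10, 1, 2 and 60 reads. HZ pools gave 5.16, 15.0, 18.0 and 8.83 CPM at 18, 21, 24 and 27 somites, and Ngn3Cre pools 32.4, 18.0 and 26.5 CPM at 21, 24 and 27 somites. Every HM pool lay below every HZ pool. HM averaged 0.642 ± 0.665 CPM and HZ 11.7 ± 5.81 CPM (SD over 4 pools each). The fitted log2 fold change was -5.09 with an SE of 0.88 (edgeR, adjusted p = 0.0251), and its size depends on the prior count for pools of 1 and 2 reads. Part of its exons overlaps Hk3 on the other strand, and no source used here says if counting used strand, so reads of the overlap cannot be told apart.

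Of the cells that could be clustered, HM had 1 endocrine-like cell and HZ 142, and endocrine-like cells held Unc5a at 30.2 CPM. Without endocrine-like and neural or neural crest-like cells its log2 fold change was -4.28 ± 1.98 (SE; edgeR adjusted p = 1), in a fit with 2 residual degrees of freedom. In those reduced pools Unc5a was at 1.21, 0.0869, 0.0535 and 0.582 CPM in HM and at 4.81, 4.77, 0.804 and 0 CPM in HZ, in order of stage, so that the groups overlapped. Without HM at 24 somites, which held 60 reads, the log2 fold change was -7.46, and without HM at 21 somites -4.13. The call was lost when HM at 18, HZ at 18, HZ at 21 or HZ at 24 somites was left out (adjusted p of 0.00431 to 0.0927 over the 11 fits without 1 pool).

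The ephrin-A ligand Efna5 was lower in HM at the shared stages. Efna5 (chr17:62604184-62881317, minus strand) is a membrane-anchored repellent best known from the retinal map. HM pools gave 758, 154, 136 and 244 CPM at 15, 18, 21 and 24 somites. HZ pools gave 352, 295, 380 and 570 CPM at 18, 21, 24 and 27 somites, and Ngn3Cre pools 283, 281 and 446 CPM. At 18, 21 and 24 somites each HM pool lay below every HZ pool, but HM at 15 somites, with no HZ partner, was the highest of all 11. The log2 fold change was -0.98 ± 0.18 (SE; edgeR adjusted p = 0.0306), with means of 323 ± 294 CPM in HM and 399 ± 119 CPM in HZ (SD, n = 4 pools each).

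Hepatic marker sums were high in some pools with low Efna5, though not in those alone. The 7 hepatic markers, none at 0 in a pool, summed to 8614 and 14874 CPM in HM at 18 and 21 somites and to 248 and 2170 CPM at 15 and 24 somites, against 1121 to 9535 CPM in HZ. HZ at 18 somites had the 9535 CPM, more than HM at that stage, with Efna5 at 352 against 154 CPM. In Ngn3Cre the sum was 797 to 1529 CPM though 0 of its clustered cells were hepatic-like, so the sum need not come from such cells. Of the clustered cells, 10 in HM and 9 in HZ were hepatic-like. Hepatic-like cells held Efna5 at 5.92 CPM, and their part in the result was not tested. The endocrine-like clusters held Efna5 at 138 to 502 CPM. In the neural or neural crest-like cluster, with 6 HM and 15 HZ cells, it was at 791 CPM. Without endocrine-like and neural or neural crest-like cells the log2 fold change was -0.68 ± 0.13 (SE; edgeR adjusted p = 0.235). The call was lost without HM at 18 or 21, HZ at 18, 21 or 24, or Ngn3Cre at 27 somites (adjusted p of 0.0109 to 0.1475 over the 11 fits).

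The transmembrane semaphorin Sema6a was higher in HM. Sema6a (chr18:47235598-47368870, minus strand) binds plexins of the A class and acts both as a ligand and as a receptor. HM pools gave 75.8, 59.0, 79.5 and 94.4 CPM at 15, 18, 21 and 24 somites, and HZ pools 32.4, 43.5, 46.3 and 46.7 CPM at 18, 21, 24 and 27 somites. In Ngn3Cre it stood at 21.5, 19.2 and 23.1 CPM at 21, 24 and 27 somites. The 3 genotypes did not overlap: every HM pool was above every HZ pool, and every HZ pool above every Ngn3Cre pool. The HM mean of 77.2 ± 14.6 CPM against 42.2 ± 6.69 CPM in HZ (SD, n = 4 pools each) gave 0.94 ± 0.19 (SE) as log2 fold change (edgeR, adjusted p = 0.0432). This call passed the threshold narrowly: it was kept only without HM at 15 somites and lost without each of the other 10 pools (adjusted p of 0.0477 to 0.185). Without endocrine-like and neural or neural crest-like cells the log2 fold change was 0.55 ± 0.23 (SE; adjusted p = 1 in edgeR).

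Slit1 and Sema3a, both secreted repellents, had the next smallest p and did not pass. Slit1 was at 1.98, 0, 0 and 0.405 CPM in HM (15, 0, 0 and 22 reads), at 1.84, 2.42, 9.63 and 7.44 CPM in HZ and at 5.80, 4.41 and 4.72 CPM in Ngn3Cre (edgeR adjusted p = 0.0725 for HM against HZ). HM at 15 somites overlapped the HZ pools, and the fold change is not a bound because 2 HM pools had no read. Sema3a was at 5.55, 0, 0 and 0.111 CPM in HM, at 2.21, 1.81, 0.746 and 26.9 CPM in HZ and at 0.668, 1.85 and 0.529 CPM in Ngn3Cre (edgeR adjusted p = 0.126 for HM against HZ). It had reads in only 41 cells, and 1 cell held 33.5% of all its reads.

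**Figure D2:**
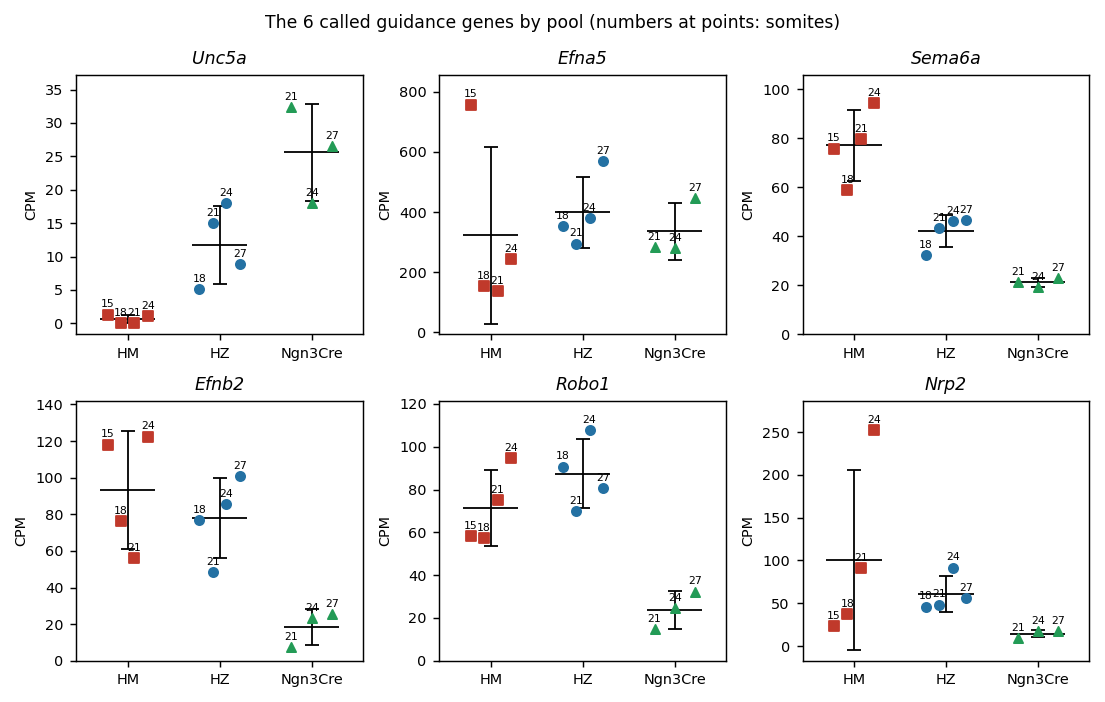
Level (CPM, linear axes) of the 6 guidance genes called in a genotype comparison, 1 point per pool with its somites, black lines for the mean and SD over pools (4 for HM, 4 for HZ, 3 for Ngn3Cre). Unc5a lies near 0 in HM, Sema6a falls into 3 separate groups, and Efnb2, Robo1 and Nrp2 are lower in all Ngn3Cre pools than in any HZ pool.

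The comparison of Ngn3Cre with HZ sets the lineage reporter beside the GFP reporter with 1 GFP allele. It uses the same HZ pools as the comparison above, so the 2 sets of values are not independent. Of 71 members tested, 3 were lower in Ngn3Cre (4.23%) and 0 higher, where 0.331% of 18420 genes were called lower, 0.00543% higher and 0.337% either way. The median log2 fold change of the members was -0.32 with 20 positive and 51 negative values, beside -0.02 for all genes. At an unadjusted p under 0.05, 14 members (19.7%) were lower and 0 higher, beside 7.05% and 3.47% of all genes. The 14 took in Unc5cl, which is not a guidance receptor.

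Efnb2, the ephrin-B ligand known for marking arteries, was lower in Ngn3Cre. It lies on chr8:8617434-8661242, minus strand. Ngn3Cre pools gave 7.43, 23.2 and 25.4 CPM at 21, 24 and 27 somites, against 76.8, 48.3, 85.7 and 101 CPM in HZ at 18, 21, 24 and 27 somites. In HM it stood at 118, 76.4, 55.9 and 122 CPM at 15, 18, 21 and 24 somites. All Ngn3Cre pools lay below all pools of the other genotypes. The Ngn3Cre mean was 18.7 ± 9.83 CPM (SD, n = 3 pools) and the HZ mean 77.9 ± 22.0 CPM (SD, n = 4 pools), and the log2 fold change -2.23 with an SE of 0.22 (edgeR, adjusted p = 0.00918).

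Robo1, a Slit receptor, was lower in Ngn3Cre too. Robo1 (chr16:72308306-73046095, plus strand) stood at 14.8, 24.4 and 32.3 CPM in Ngn3Cre at 21, 24 and 27 somites. HZ pools gave 90.7, 69.8, 108 and 80.7 CPM at 18, 21, 24 and 27 somites, and HM pools 58.1, 57.4, 75.2 and 94.8 CPM at 15, 18, 21 and 24 somites. The Ngn3Cre pools again lay below all others, while HM and HZ overlapped. Means of 23.9 ± 8.79 CPM (SD, n = 3 pools) and 87.3 ± 16.1 CPM (SD, n = 4 pools) in HZ went with -1.98 ± 0.26 (SE) as log2 fold change (edgeR, adjusted p = 0.0231).

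The neuropilin Nrp2, a co-receptor for class 3 semaphorins and for VEGF-C, was the third member called lower. Nrp2 (chr1:62703285-62818695, plus strand) was at 9.33, 17.3 and 17.0 CPM in Ngn3Cre at 21, 24 and 27 somites and at 46.0, 48.4, 91.7 and 56.3 CPM in HZ at 18, 21, 24 and 27 somites. HM covered the widest range, with 22.9, 37.4, 90.6 and 252 CPM at 15, 18, 21 and 24 somites. No Ngn3Cre pool reached the lowest pool of HZ or HM. The log2 fold change was -2.35 ± 0.35 (SE; edgeR adjusted p = 0.0277), and the mean was 14.5 ± 4.51 CPM in Ngn3Cre (SD over 3 pools) against 60.6 ± 21.2 CPM in HZ (SD over 4 pools).

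Endocrine-like cells made up most of the Ngn3Cre cells, and within them the 3 genes differed from one another. In a fit on the pools of endocrine-like cells only (HZ with 10, 76, 43 and 13 cells, Ngn3Cre with 80, 99 and 48), the log2 fold change was -0.39 ± 0.64 for Efnb2, -0.46 ± 1.02 for Nrp2 and -1.75 ± 0.54 for Robo1 (SE), and none of the 3 passed in edgeR. Efnb2 was then at 21.3, 3.33, 24.6 and 5.09 CPM in HZ and at 3.79, 5.24 and 9.18 CPM in Ngn3Cre, and the groups overlapped. Nrp2 was at 4.7 CPM or less in all 7 of these pools. Robo1 was at 68.1, 55.6, 42.5 and 15.5 CPM in HZ and at 7.79, 8.03 and 19.0 CPM in Ngn3Cre, with 1 overlap, at 27 somites. The neuropilin Nrp1 was the 1 member called in that fit, which had 2 residual degrees of freedom and called 7 of 16607 genes higher and 3 lower. It stood at 170, 143, 56.3 and 125 CPM in endocrine-like cells of HZ and at 32.0, 23.0 and 23.4 CPM in those of Ngn3Cre, with -1.97 ± 0.24 (SE) as log2 fold change (edgeR, adjusted p = 0.0218).

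Over all cells Nrp1, which binds class 3 semaphorins and VEGF, was at 40.8, 47.7 and 64.0 CPM in Ngn3Cre, at 172, 148, 104 and 78.9 CPM in HZ and at 191, 143, 105 and 138 CPM in HM. Ngn3Cre and HZ did not overlap, but the log2 fold change of -1.16 ± 0.28 (SE) did not pass (edgeR adjusted p = 0.135). Without endocrine-like and neural or neural crest-like cells 1 Ngn3Cre pool remained, 24 somites with 15 cells. There the log2 fold changes were -1.07 for Efnb2, -1.44 for Robo1, -1.92 for Nrp2 and -0.01 for Nrp1. This pool mixed cells of several clusters. In the mesenchyme-like cluster alone, with values given below, Efnb2 and Nrp2 were not lower in Ngn3Cre than in HZ. In the fits with all cells the calls of Efnb2, Robo1 and Nrp2 were lost without HZ at 21 or Ngn3Cre at 21 somites. Robo1 and Nrp2 also lost theirs without HM at 24 somites, and Nrp2 without Ngn3Cre at 24 somites. The edgeR adjusted p was up to 0.257. Over all genes, 0 were called without Ngn3Cre at 21 somites, and 0 higher and 6 lower without HZ at 21 somites. It was 1 higher and 17 lower without HM at 24 somites, and 3 and 101 without Ngn3Cre at 24 somites.

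Sema6a and Sema3c had the next smallest p against HZ and did not pass. Sema6a, with the pools given above, differed by -1.11 ± 0.19 (SE) on the log2 scale (edgeR, adjusted p = 0.0518), and in endocrine-like cells only its sign turned, to 0.74 ± 0.71 (SE; adjusted p = 0.982 in edgeR). Sema3c, a secreted cue that guides neural crest cells and vessels, was at 63.0, 67.5 and 53.1 CPM in Ngn3Cre and at 96.3, 106, 128 and 112 CPM in HZ. HM pools gave 66.1, 90.8, 139 and 208 CPM at 15, 18, 21 and 24 somites. All Ngn3Cre pools were below all HZ pools, by -0.98 ± 0.19 (SE) on the log2 scale (edgeR, adjusted p = 0.0811).

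The promoters of 3 called genes are shown because the genotypes differ in Neurog3, whose class of factors binds E-boxes, written CANNTG. The sequences are the 250 bases before the RefSeq start (GRCm38.p6), 5′ to 3′ on the gene's strand, with each CANNTG in capitals; the motif reads the same on both strands. The windows are chr13:54949161-54949410 (Unc5a, plus strand), chr16:72662899-72663148 (Robo1, plus strand) and chr8:8661243-8661492 (Efnb2, minus strand). For Robo1 this RefSeq start lies inside the gene span given above.
Unc5a: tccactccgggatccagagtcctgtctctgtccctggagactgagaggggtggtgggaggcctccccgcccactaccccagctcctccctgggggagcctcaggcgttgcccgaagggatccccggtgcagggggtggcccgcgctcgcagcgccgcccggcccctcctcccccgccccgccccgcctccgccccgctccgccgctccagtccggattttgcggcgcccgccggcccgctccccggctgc
Robo1: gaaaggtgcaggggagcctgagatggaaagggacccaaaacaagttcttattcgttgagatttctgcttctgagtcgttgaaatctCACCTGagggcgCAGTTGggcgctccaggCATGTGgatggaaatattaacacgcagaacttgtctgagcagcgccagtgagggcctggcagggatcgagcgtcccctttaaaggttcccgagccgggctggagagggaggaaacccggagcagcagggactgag
Efnb2: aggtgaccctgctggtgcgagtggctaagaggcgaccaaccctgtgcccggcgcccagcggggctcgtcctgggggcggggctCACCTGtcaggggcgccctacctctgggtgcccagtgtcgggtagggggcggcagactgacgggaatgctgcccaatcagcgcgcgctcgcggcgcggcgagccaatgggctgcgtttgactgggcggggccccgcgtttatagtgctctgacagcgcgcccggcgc
The Unc5a window held 0 matches, the Robo1 window 3 and the Efnb2 window 1. The Nrp2 and Efna5 windows held 0. The window of Sema6a, also a called gene, was not searched. Of 32851 promoters of this length, 66.2% held 1 or more and 12.2% held 3 or more, so a match alone is common. A match is a description of letters and no binding site.

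Clustering of the 713 deeper cells (at least 2000 genes and 100000 reads), run without the members, gave 11 clusters and shows which cells the reads came from. There were 4 endocrine-like clusters, led by Neurog3 (128 cells), Fev (83), Gcg (104) or Ghrl and Acsl1 (56). The others were a pancreatic progenitor-like cluster with cell cycle genes (49 cells), a neural or neural crest-like one with Tlx2 (60), a mesenchyme-like one with Col1a1 (57) and a hepatic-like one with Apoa1 and Afp (19). Another 3 stayed unnamed and were led by Smoc2 and Sfrp5 (60 cells), by Prdm1 and Cdx2 (78) and by Rgs13 and Fgf10 (19). HM had 1 cell in the endocrine-like clusters, HZ 142 and Ngn3Cre 228. The neural or neural crest-like cluster held 6 HM, 15 HZ and 39 Ngn3Cre cells, and the hepatic-like one 10, 9 and 0. No doublet caller was run, and levels by cluster are descriptions with no test.

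Endocrine-like cells held less of many guidance genes than the other cells did. Of 38 members at 10 CPM or more on either side, 16 (42.1%) were at least 2-fold lower in the summed endocrine-like cells (371) than in the others (342), and 2 (5.26%) at least 2-fold higher. Over all 10236 genes at that level the shares were 16.1% and 13.4%. The 2 higher members were Unc5a (30.2 against 2.07 CPM) and the transmembrane semaphorin Sema6b (14.3 against 6.68 CPM). The 16 lower ones took in 4 ephrin ligands (Efnb2, Efnb1, Efna1 and Efna4), the receptors Epha1, Epha7 and Ephb4, both neuropilins, Robo1 and Robo2, Plxna2, Sema5a, Sema6a, Ntn1 and Slit2. Nrp2 (1.95 against 121 CPM), Robo2 (1.30 against 93.4 CPM) and Efnb2 (7.37 against 101 CPM) had wide gaps, Efna5 (291 against 352 CPM) a narrow one.

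The endocrine-like clusters themselves differed. Unc5a was at 36.6 CPM in the Neurog3-led, 41.6 in the Fev-led, 20.1 in the Gcg-led and 22.9 CPM in the Ghrl-led cluster, and at most 5.35 CPM in any other. The Neurog3-led cells also held Ephb2 (106 CPM), a receptor for ephrin-B ligands, Ephb3 (73.0 CPM) and the secreted Sema3g (34.4 CPM). In the Gcg-led cells these were at 40.8, 26.1 and 0.21 CPM. Nrp1 was at 117 CPM in the Neurog3-led, 40.0 in the Fev-led, 8.61 in the Gcg-led and 54.7 CPM in the Ghrl-led cluster. Receptors for ephrin-B were thus present where the ligand Efnb2 was at 4.64 to 17.2 CPM. The other ephrin-B ligands were there too, Efnb3 at 15.0 to 30.5 CPM and Efnb1 at 4.62 to 26.4 CPM. Nrp2 was at most 2.65 CPM in all 4 clusters.

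Of the 50 members that reached 10 CPM in a cluster, 12 were highest in the Prdm1-led and 10 in the Smoc2-led cluster. Another 7 each were highest in the Neurog3-led and Rgs13-led clusters, and 4 in the neural or neural crest-like one. The 50 took in Unc50, which is not a guidance gene and was highest in the Gcg-led cluster. All genes were not counted in this way, so whether these numbers are particular to the members is not known. The Prdm1-led cells, of which 49 were HM and 28 HZ, held Nrp2 at 306 CPM, Sema3c at 256, Robo2 at 228, Efnb2 at 173 and Sema6a at 113 CPM, and the GPI-anchored netrin Ntng1 at 25.0 CPM. Sema3c, a class 3 semaphorin, and a neuropilin that can bind this class were thus both high in the summed reads of 1 cluster, and whether single cells held both was not tested. In the Smoc2-led cells Nrp1 (295 CPM), Robo1 (185 CPM) and Ntn1 (37.9 CPM) stood highest, and Robo2 was at 18.4 CPM. The progenitor-like cells resembled these, with Robo1 at 176 CPM and Robo2 at 15.6 CPM. Neural or neural crest-like cells held the highest Slit2 (33.6 CPM), Plxna4 (40.1 CPM) and Sema6d (34.3 CPM), and Robo2 at 110.2 CPM. In these cells Slit2 was at 48.4 CPM in Ngn3Cre and at 8.13 CPM in HZ, and 1 cell held 22.9% of all Slit2 reads of the series. Epha7 (215 CPM) and Efna5 (842 CPM), a receptor and a ligand of 1 family, were both highest in the Rgs13-led cells. Efna5 was nearly as high in the neural or neural crest-like cells, at 791 CPM, where Epha7 was at 5.39 CPM.

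**Figure D3:**
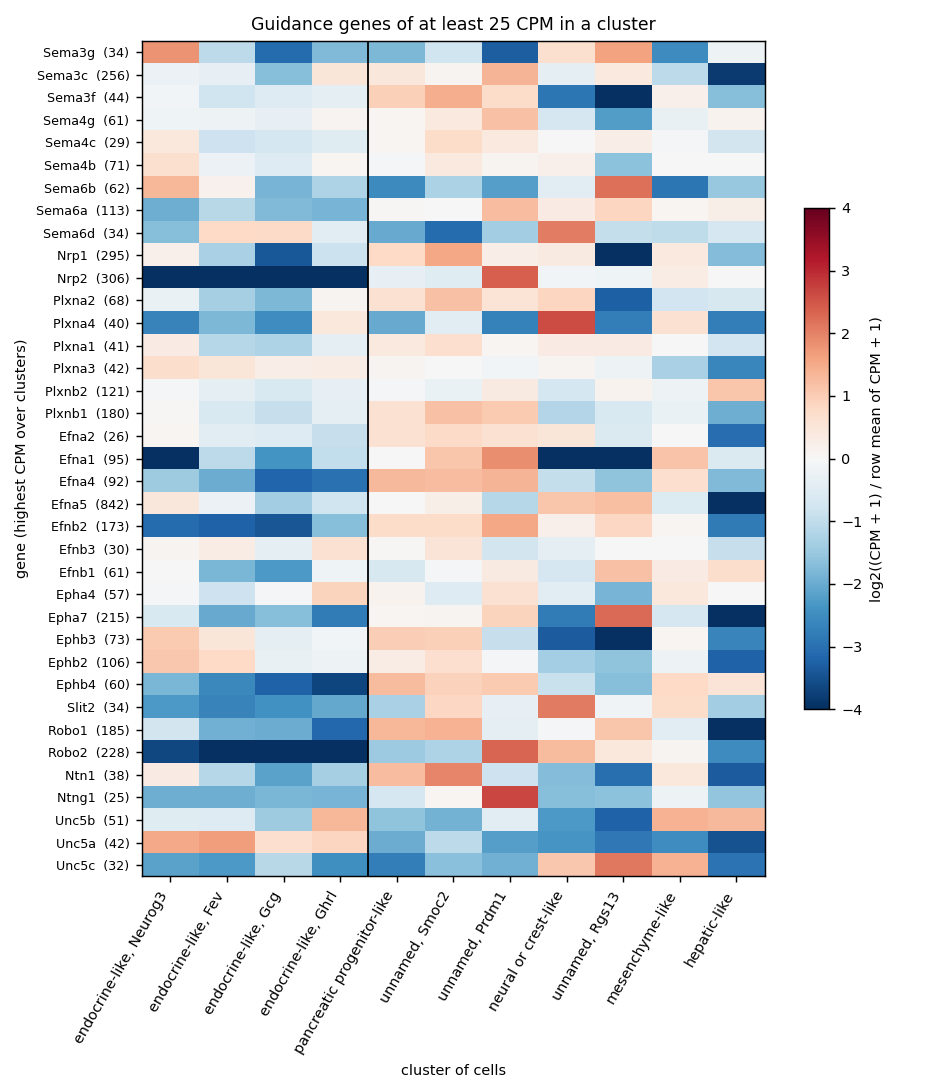
Guidance genes of at least 25 CPM in a cluster (rows, with the highest CPM in brackets) in the 11 clusters (columns, endocrine-like left of the black line), as log2 of CPM + 1 over the row's mean of CPM + 1. Nrp2, Robo2 and Efnb2 are blue in the endocrine-like columns, Unc5a is red there, and Nrp2, Robo2 and Ntng1 are darkest red in the Prdm1-led column.

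Within clusters, Robo1 and Nrp1 also differed between reporters in the early endocrine-like cells. Robo1 was at 64.9 CPM in HZ and 13.5 CPM in Ngn3Cre cells of the Neurog3-led cluster (81 and 47 cells), and at 40.7 and 5.55 CPM in the Fev-led one (29 and 53 cells). Nrp1 stood at 174 and 46.6 CPM in the Neurog3-led and at 66.8 and 26.2 CPM in the Fev-led cluster. In the Gcg-led cluster (17 and 87 cells) the values were close, 20.8 and 16.1 CPM for Robo1 and 7.22 and 8.83 CPM for Nrp1. In the Ghrl-led cluster (15 and 41 cells) Nrp1 was at 113 and 41.2 CPM and Robo1 at 11.5 and 5.98 CPM. Efnb2 was at 6.41 CPM in HZ and 5.65 CPM in Ngn3Cre cells of the Neurog3-led cluster, but at 53.7 and 8.76 CPM in the Ghrl-led one. Nrp2 was at 2.34 and 3.02 CPM in the Neurog3-led and at 0.855 and 0.515 CPM in the Ghrl-led cluster. In the mesenchyme-like cluster (28 HZ and 10 Ngn3Cre cells) Robo1 was at 50.9 and 48.6 CPM and Nrp1 at 99.6 and 205 CPM. Efnb2 was there at 73.1 and 86.2 CPM and Nrp2 at 61.2 and 68.9 CPM. In the neural or neural crest-like cluster (15 and 39 cells) Robo1 was at 64.6 and 76.1 CPM and Nrp1 at 140 and 137 CPM. Efnb2 was at 86.6 and 67.5 CPM in these cells and Nrp2 at 61.4 and 56.3 CPM. Between HM and HZ, Unc5a was at 0.023 and 6.61 CPM in the Prdm1-led cluster (49 and 28 cells), at 1.29 and 5.62 CPM in the Smoc2-led one (26 and 31 cells), and at 0.767 and 0.508 CPM, in the other order, in the progenitor-like one (25 and 18 cells). Sema6a was higher in HM than in HZ in the Prdm1-led (123 and 93.7 CPM), Smoc2-led (55.9 and 42.6 CPM) and progenitor-like cells (51.1 and 46.6 CPM). Efna5 showed no such order, with 177 in HM and 138 CPM in HZ in the Prdm1-led but 311 and 446 CPM in the progenitor-like cells. These are single summed values per genotype over all stages, with no replicate check. Stages were not matched between genotypes: at 18 somites HZ had 10 endocrine-like cells and Ngn3Cre 1.

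**Figure D4:**
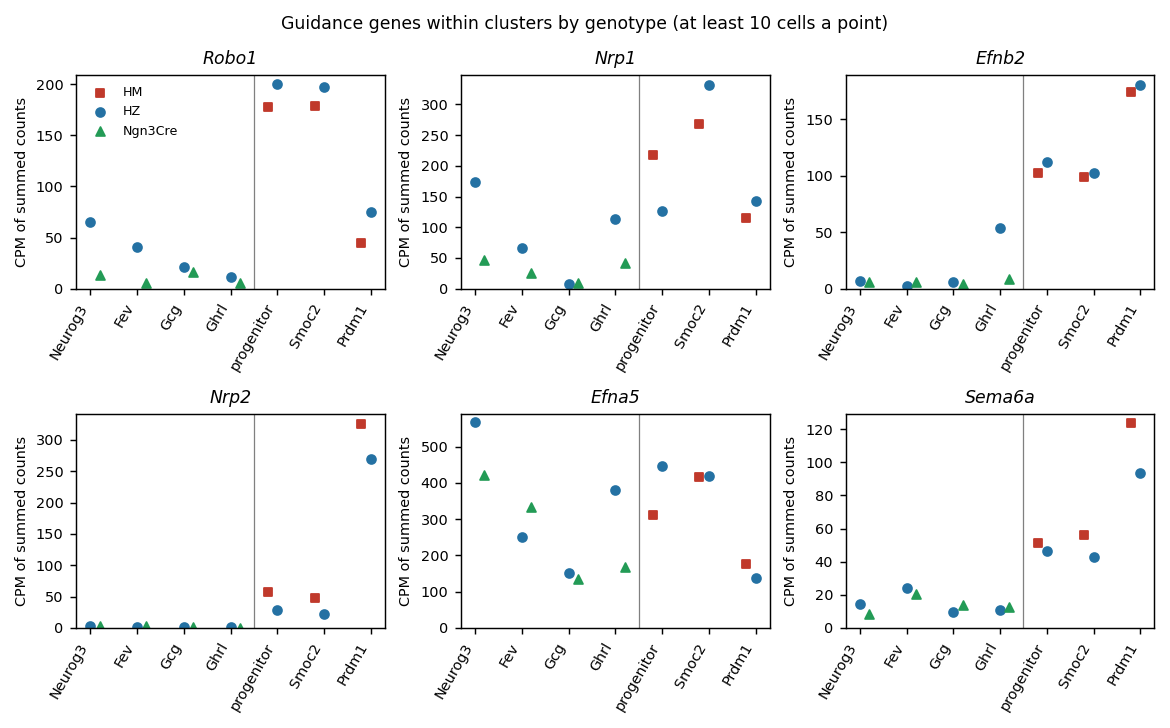
Level (CPM of summed counts, linear axes from 0) of 6 guidance genes by cluster and genotype, endocrine-like clusters left of the grey line, 1 symbol for each genotype with at least 10 cells. The mesenchyme-like and neural or neural crest-like clusters, among others, are not shown. HZ lies above Ngn3Cre for Robo1 and Nrp1 in the Neurog3-led and Fev-led clusters, and for Nrp1 and Efnb2 in the Ghrl-led one (Efnb2 53.7 against 8.76 CPM); Nrp2 is low in all 4 endocrine-like clusters.

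Stage was compared as a slope per somite with genotype as a factor, on the 11 pools. Of 65 members tested, 0 were called rising and 0 falling (edgeR), where 0 of 16478 genes, 0.0%, were called either way. At an unadjusted p under 0.05 stood 10 members (15.4%; 5 rising and 5 falling), beside 8.36% of all genes (4.83% rising and 3.53% falling), and DESeq2 called 1 rising (Nrp2) and 1 falling (Ntn1), with 167 rising and 138 falling over all genes. The smallest p belonged to Nrp2, with a slope of 0.23 ± 0.06 log2 units per somite (SE; edgeR adjusted p = 0.295), from the pools given above. Ntn1, the secreted netrin, followed at -0.32 ± 0.08 (SE; edgeR adjusted p = 0.295). It stood at 18.8, 29.4, 5.99 and 6.34 CPM in HM, at 31.7, 12.8, 3.11 and 1.499 CPM in HZ and at 6.24, 3.58 and 5.08 CPM in Ngn3Cre. HZ went down at each step, HM did not, and Ngn3Cre had no clear order.

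Ephb3, Robo2 and Sema3c had the next smallest p for stage, and none passed (edgeR adjusted p = 0.46, 0.495 and 0.519). Ephb3, an ephrin-B receptor of gut and pancreas epithelium, was at 70.0, 30.8, 23.5 and 36.1 CPM in HM, at 55.2, 49.7, 38.1 and 18.0 CPM in HZ and at 42.3, 25.8 and 35.1 CPM in Ngn3Cre. Robo2, another Slit receptor, was at 32.5, 50.6, 111 and 150.0 CPM in HM, at 41.0, 46.4, 38.5 and 38.1 CPM in HZ and at 6.78, 19.7 and 20.7 CPM in Ngn3Cre. Later pools of HM and of Ngn3Cre were the higher ones for Robo2, while HZ stayed within 38.1 to 46.4 CPM.

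Whether slopes differed between HM and HZ was tested on their 8 pools. Of 64 members tested 0 were called, and 0.0% of 16207 genes were (edgeR); 13 members (20.3%) had an unadjusted p under 0.05, 10 of them with a slope higher in HM than in HZ, beside 7.6% of all genes (5.18% with a higher slope in HM). A higher slope need not be a steeper one: Efna1 was at 45.5, 96.0, 55.4 and 63.1 CPM in HM and at 63.6, 22.3, 18.3 and 2.30 CPM in HZ, so that HZ was lower at each later stage and HM had no order. Robo2 had the smallest p, with a difference of 0.28 ± 0.05 log2 units per somite (SE), then Sema6d with 1.24 ± 0.28 and Nrp2 with 0.32 ± 0.07 (SE; edgeR adjusted p = 0.642 for all 3). DESeq2 called 4 members here, Robo2, Nrp2, Sema6d and Efna1, and over all genes 130 with a higher and 41 with a lower slope in HM. The summed endocrine markers were at 1029 CPM in HZ at 18 somites and at 13647 CPM at 27 somites, against 85.1 to 592 CPM in HM with no order, and their part in these slopes was not tested.

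**Figure D5:**
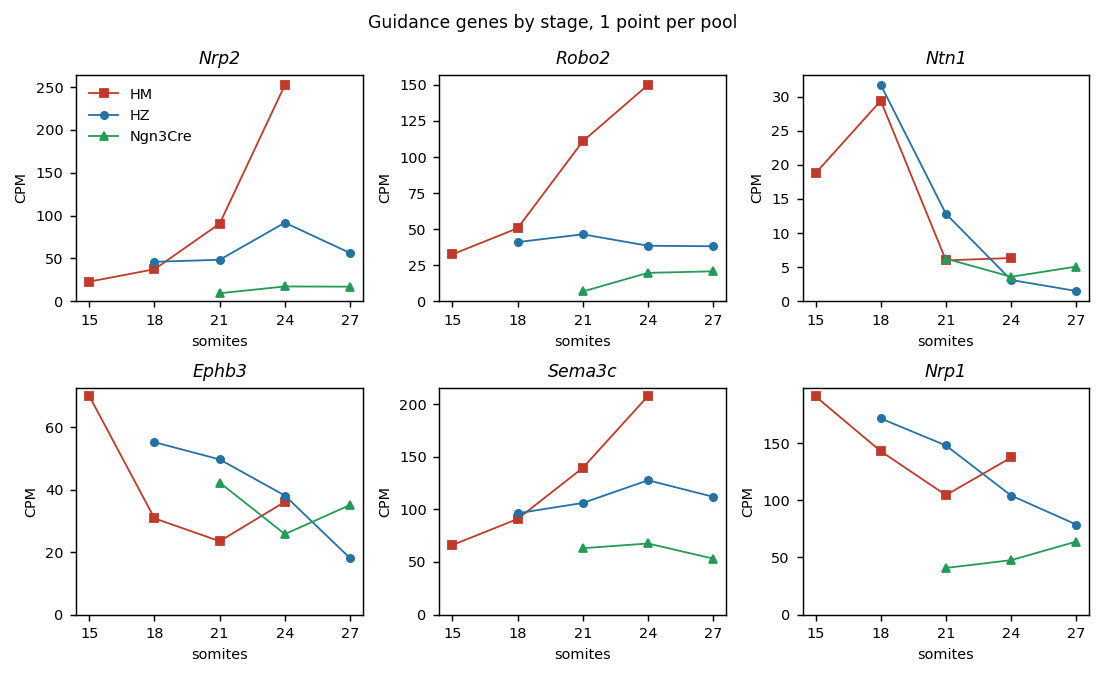
Level (CPM, linear axes from 0) of 6 guidance genes against somites, 1 point per pool, lines joining the pools of a genotype. Nrp2, Robo2 and Sema3c are higher at each later stage in HM (Nrp2 from 22.9 to 252 CPM), and Ntn1 and Nrp1 go down in HZ; no slope passed the test.

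The remaining leading members of their families passed no test. Sema4b was at 50.9, 57.2, 41.3 and 48.5 CPM in HM, at 46.8, 61.6, 64.0 and 21.8 CPM in HZ and at 30.5, 39.5 and 49.2 CPM in Ngn3Cre, and all 3 genotypes overlapped. Plxnb1 was at 124, 175, 99.8 and 131 CPM in HM, at 102, 87.2, 92.8 and 60.9 CPM in HZ and at 57.8, 49.7 and 58.9 CPM in Ngn3Cre, with Ngn3Cre below the other 2 groups. Part of its exons overlaps Gm7628 on the other strand. Epha7, a receptor for ephrin-A ligands, was at 41.5, 7.17, 35.3 and 74.2 CPM in HM, at 18.8, 30.2, 60.7 and 134 CPM in HZ and at 16.7, 12.1 and 3.43 CPM in Ngn3Cre. Its highest pool was HZ at 27 somites. Unc5b, a netrin receptor of vessels, was at 56.7, 13.2, 16.6 and 8.31 CPM in HM, at 29.0, 15.7, 23.4 and 18.8 CPM in HZ and at 13.7, 14.0 and 23.4 CPM in Ngn3Cre, so that the groups overlapped. Slit2 was at 21.4, 29.0, 5.04 and 6.35 CPM in HM, at 5.03, 2.98, 3.54 and 1.61 CPM in HZ and at 1.44, 3.60 and 16.9 CPM in Ngn3Cre. HM lay just above HZ for Slit2, with 5.04 against 5.03 CPM at the nearest points, and the difference did not pass (edgeR adjusted p = 0.361). Of all Slit2 reads of the series, 1 cell held 22.9%.

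Genes that work with these cues were read from 2 lists. Of 25 other guidance cues and receptors, all tested, 1 was lower in HM and 0 higher, with a median log2 fold change of -0.26, beside 1.38% lower, 0.0923% higher and a median of -0.09 over all genes. It was Ret, the receptor for GDNF, at 9.91, 7.97, 1.33 and 7.97 CPM in HM and 41.4, 77.7, 88.7 and 32.7 CPM in HZ, with no overlap (log2 fold change -3.67 ± 0.63, SE; edgeR adjusted p = 0.0251). Of 47 intracellular partners 3 were lower in HM and 0 higher, with a median of -0.09, which is also that of all genes. They were Pak3, a kinase downstream of small GTPases (-4.07 ± 0.45; edgeR adjusted p = 0.00244), Dpysl2, which relays semaphorin signals to microtubules (-1.04 ± 0.19; adjusted p = 0.0303), and Mical2, an enzyme that takes actin apart (-3.08 ± 0.57; adjusted p = 0.0327). Leaving out 1 pool lost the call of Dpysl2 in 6 of 11 fits, of Mical2 in 5 and of Ret in 2 (without HZ at 21 or 24 somites), and of Pak3 in 0. Pak3 was among the leading genes of the Fev-led cluster, and without endocrine-like and neural or neural crest-like cells its log2 fold change was -0.91 (adjusted p = 1). Neither list had a gene called between Ngn3Cre and HZ or by stage, and 5 and 6 genes had an unadjusted p under 0.05 between the reporters (10.5% of all genes) and 5 and 4 by stage (8.36% of all genes).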

How the data were processed

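Expression was measured as read counts for each gene in each cell, which the authors deposited unscaled, and as deposited TPM, in which a fixed length per gene links both tables. The submitters' processing notes list FastQC 0.11.9, Trimmomatic 0.39 and HISAT2 2.1.0, with GRCm38 and mm10 as builds. How reads were counted, on which annotation and with what use of strand, the sources used here do not say. Cells had 1400 to 2525083 reads (median 452597), which limits what 1 pool of few cells can show. Counts were summed by genotype and stage. Genotype contrasts used genotype and stage as factors; the stage slope used genotype and somite number, and the slope difference their product on HM and HZ pools. All genes were tested together by quasi-likelihood in edgeR 4.0.16 under R 4.3.3, with TMM scaling, edgeR's default filter and Benjamini-Hochberg adjustment at 0.05; an SE is the size of a log2 fold change over the square root of F. No embryo is named and all titles carry 1 batch mark, so p-values reflect how much a difference varied from stage to stage. CPM of pools are TMM-scaled; CPM of clusters and of pools of some cells only are plain. TPM of pools used the length implied by both tables. Cells were clustered with scanpy 1.11.5 and leidenalg 0.10.2 (2000 genes, 30 components, 15 neighbours, resolution 1, or 0.5 and 2). DESeq2 1.42.0 and limma 3.58.1 (pseudocount 1) were alternatives, beside other scaling, no filter, left-out pools, all 14 pools and subsets of cells, and edgeR was tested on simulated data. Positions are from GENCODE vM21. Members called, the 5 smallest p per comparison and the highest level per length in each family are given in every pool. The members, lists and alternatives were chosen with earlier results of these data known. Some marker genes are not reported here.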

Additional observations from a re-analysis of the deposited data

Results flagged for a closer look

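Among 36 groups of 4 pools checked over the 18 genes given in every pool, 2 had a pool far from the others, and chance alone marks about 1 in 20 such groups. Both concern Sema3a, the class 3 semaphorin with reads in 41 cells. In HM the pool of 15 somites stood at 5.55 CPM while the other 3 HM pools were at 0, 0 and 0.111 CPM. In HZ the pool of 27 somites stood at 26.9 CPM while the other 3 HZ pools were at 0.746 to 2.21 CPM, and 1 cell held 33.5% of all Sema3a reads of the series.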

How the results depend on the processing

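With DESeq2 in place of edgeR, HM against HZ gave 5 members lower and 6 higher (1072 and 314 of 18420 genes), Ngn3Cre against HZ 13 lower (704 genes), the stage slope 1 rising and 1 falling (167 and 138 of 16478 genes), and the slope difference 4 (130 with a higher and 41 with a lower slope in HM, of 16207 genes). Leaving out 1 pool at a time moved the members lower in HM between 0 and 5. Those higher in HM moved between 0 and 1, and those lower in Ngn3Cre between 0 and 5. Without HZ at 21 somites all 6 calls were lost. Of 18151 genes that fit called 1 higher and 88 lower in HM and 6 lower in Ngn3Cre. With all 14 pools each of these 3 counts was 0. Of 16888 genes that fit called 0 higher and 37 lower in HM and 2 lower in Ngn3Cre. The fit without endocrine-like and neural or neural crest-like cells had 1 Ngn3Cre pool, of 15 cells. This pool was assumed to vary like the other groups, so counts of that fit say nothing about stability. With only the 2 genotypes compared, HM against HZ gave 0 lower and 0 higher, beside 91 lower and 3 higher of 17444 genes. With limma on mean CPM 0 members were higher in HM and 0 lower in Ngn3Cre. On mean TPM 1 was lower in HM, 0 higher and 0 lower in Ngn3Cre. Over all 18420 genes limma called 19 higher and 256 lower in HM and 3 lower in Ngn3Cre on mean CPM. On mean TPM these counts were 11, 207 and 0. In endocrine-like cells only, 1 member was lower in Ngn3Cre and Sema6a turned to 0.74 on the log2 scale; this was the 1 value of a gene that changed sign. The cause of these changes was not tested, apart from the fewer pools or cells that some fits hold. DESeq2's size factors in edgeR, no filter and deeper cells moved no count by over 1.5 times. The median of all genes in Ngn3Cre against HZ was -0.14 with all 14 pools and -0.17 without endocrine-like and neural or neural crest-like cells. No paired analysis was possible because the numbers in the sample titles count cells within a genotype and stage and pair nothing.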

Other observations

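The 3 pools of fewer than 10 cells entered no test, and their levels are plain CPM. In HM at 27 somites (4 cells) Efna5 stood at 1003 CPM, Efnb2 at 725, Robo1 at 304, Nrp2 and Sema6a at 90.1 each and Unc5a at 0 CPM. In HZ at 15 somites (5 cells) Efna5 stood at 963 CPM, Sema6a at 77.3, Efnb2 at 74.7, Robo1 at 69.5, Unc5a at 1.7 and Nrp2 at 0 CPM. Efna5 was thus high in both youngest pools, 963 CPM in HZ and 691 plain CPM in HM at 15 somites, which no test compared. Ngn3Cre at 18 somites (3 cells) held 32 reads of Robo1, 76 of Efna5, 2 of Sema6a and 0 of Efnb2, Nrp2 and Unc5a, too few to read a level.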
